A study of Mus musculus with 15 samples.

Results

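Pancreatic acini from C57BL/6 mice of 7 to 8 weeks were treated with caerulein at 100 nM or at 100 pM, and their miRNA profiles were set against each other. These 6 libraries, 3 at each dose, are those whose titles name caerulein, of 15 small RNA libraries in all. The submitters' design text calls 100 nM a pathological and 100 pM a physiological dose. The other 9 libraries are untreated controls and acini given the bile acid TLC-S. They entered the scaling, the low-count filter and the estimate of the spread between libraries. The filter kept 351 miRNAs with all 15 libraries and 307 with the 6 caerulein libraries alone. Control levels are given below for orientation. The duration of treatment is not given in the sources used here. RNA was pooled over 3 independent acinar preparations, and the labels do not tell which preparations went into which library. The p-values therefore measure the spread between libraries, part of which may be technical.

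Caerulein is a peptide analogue of cholecystokinin and acts on the cholecystokinin receptor of the acinar cell. Low concentrations drive oscillating calcium signals and the release of digestive enzymes, whereas concentrations above the secretory maximum block release and activate trypsinogen inside the cell, which is why the peptide is widely used to model acute pancreatitis. A miRNA is cut from a hairpin precursor with a 5p and a 3p arm, and bases 2 to 8 of the mature strand, the seed, pair with target mRNAs. miRNAs that share a seed share many predicted targets.

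The mature sequences below belong to the miRNAs with the smallest unadjusted p-values between the doses that had an entry in RefSeq (GRCm38.p6; 8 of 12 had one), each written 5′ to 3′ with the seed in capitals. They are shown so that the family relations discussed with the values can be seen.
miR-138-5p: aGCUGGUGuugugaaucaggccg
miR-130b-3p: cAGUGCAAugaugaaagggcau
miR-154-5p: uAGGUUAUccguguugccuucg
miR-29b-2-5p: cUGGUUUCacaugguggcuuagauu
miR-132-5p: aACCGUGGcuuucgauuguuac
miR-148a-3p: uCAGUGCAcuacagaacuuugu
miR-221-5p: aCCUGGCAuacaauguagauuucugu
miR-142a-5p: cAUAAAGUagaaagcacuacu
The remaining 4 were miR-5099, miR-874-3p, miR-151-3p and miR-187-3p. No seed was shared among the 8, although the seeds of miR-130b-3p and miR-148a-3p both hold the run AGUGCA.

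The 2 doses could not be separated as whole profiles. Total miRNA counts ran from 535473 to 5087728 at 100 nM (replicates 2 and 3) and from 1095757 to 2114419 at 100 pM. The distance between 2 libraries was taken as the root mean square log2 difference over the 274 miRNAs with a mean CPM (TMM-scaled counts at a common depth) of at least 10. The 9 pairs of libraries from different doses lay 0.428 to 0.744 apart, with a median of 0.566. Pairs within 100 nM lay 0.530 to 0.650 apart and pairs within 100 pM 0.552 to 0.743. The closest of all pairs, at 0.428, joined replicate 3 of 100 nM to replicate 3 of 100 pM, and the next, at 0.477, joined the replicates 1 of both doses. As a set, libraries of different doses were not farther apart than libraries of the same dose. Only pairs between doses can share a replicate number, however. Those of unlike number lay 0.553 to 0.744 apart, a range that still overlaps both within-dose ranges.

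miR-148a-3p alone held 24.8%, 20.2% and 22.2% of counts in replicates 1 to 3 of 100 nM, against 23.8%, 35.4% and 36.4% at 100 pM. Its share was high in 2 of the 100 pM libraries and near that of the 100 nM libraries in the third. In bulk acini, fewer cells of a type and less RNA per cell cannot be told apart. TMM scaling adjusts CPM for such a dominant species. The scaling factors were 1.05, 1.07 and 1.04 at 100 nM and 1.00, 0.768 and 0.794 at 100 pM. When scaled by library totals alone, the median of all log2 differences moved up by 0.29, so negative differences smaller than that could turn positive. RLE size factors and upper quartile scaling moved the median by 0.013 and -0.0097.

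**Figure D1:**
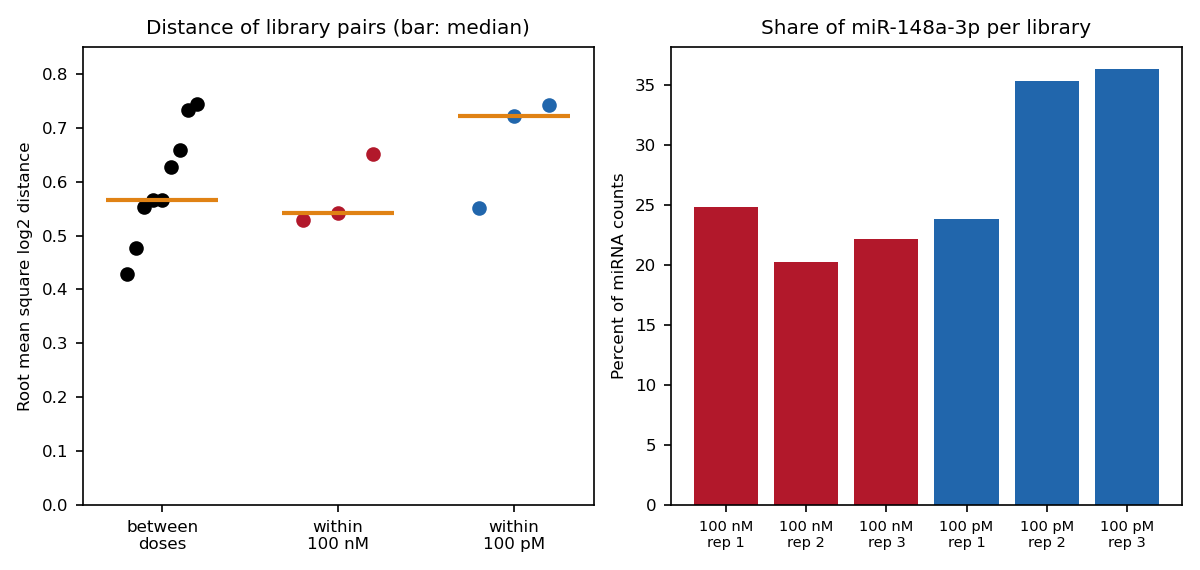
Left, root mean square log2 distance of each pair of caerulein libraries over 274 miRNAs, for 9 pairs between doses and 3 pairs within each dose, with the median as a bar. Right, percent of miRNA counts taken by miR-148a-3p in each library. Pairs between doses span 0.428 to 0.744, which covers both within-dose ranges, and the share of miR-148a-3p is above 35% only in replicates 2 and 3 of 100 pM.

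No miRNA passed the test between the doses. Of 351 miRNAs tested with edgeR's quasi-likelihood test, 0 (0%) had an adjusted p under 0.05, and the smallest adjusted p was 0.986. DESeq2 and limma called 0 as well. At an unadjusted p under 0.05 edgeR found 6 (1.71%), of which 3 (0.855%) were higher and 3 (0.855%) lower at 100 nM, and DESeq2 also found 6. All 3 libraries of one dose lay above all 3 of the other for 20 miRNAs (5.7%), with 100 nM above for 8 (2.28%) and below for 12 (3.42%). The log2 difference, 100 nM minus 100 pM, was above 0 for 170 of 351 miRNAs (48.4%), and its median over all was -0.02. Leaving out replicate 1 of 100 pM raised the number at an unadjusted p under 0.05 to 28 of 366, and leaving out replicate 3 of 100 nM raised it to 17 of 362, with 0 adjusted calls in each case.

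The libraries did bound the size of many differences. For 176 miRNAs (50.1%) the 95% interval of the log2 difference lay within 1 of 0, so a 2-fold difference in either direction was outside the interval. This held for 53 of 56 miRNAs with a mean above 1000 CPM and for 75 of 90 between 100 and 1000 CPM. It held for 48 of 128 between 10 and 100 CPM and for 0 of 77 below 10 CPM. The median half-width of the interval was 0.50, 0.58, 0.84 and 1.48 in those 4 classes, from the most to the least abundant. All 14 miRNAs whose fitted difference exceeded 1 on the log2 scale averaged under 10 CPM, where the interval reached beyond 1 for all 77 miRNAs. The intervals are not adjusted for the number of miRNAs. Like the p-values, they rest on the spread between libraries, part of which may be technical. They also take the TMM scaling as given.

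**Figure D2:**
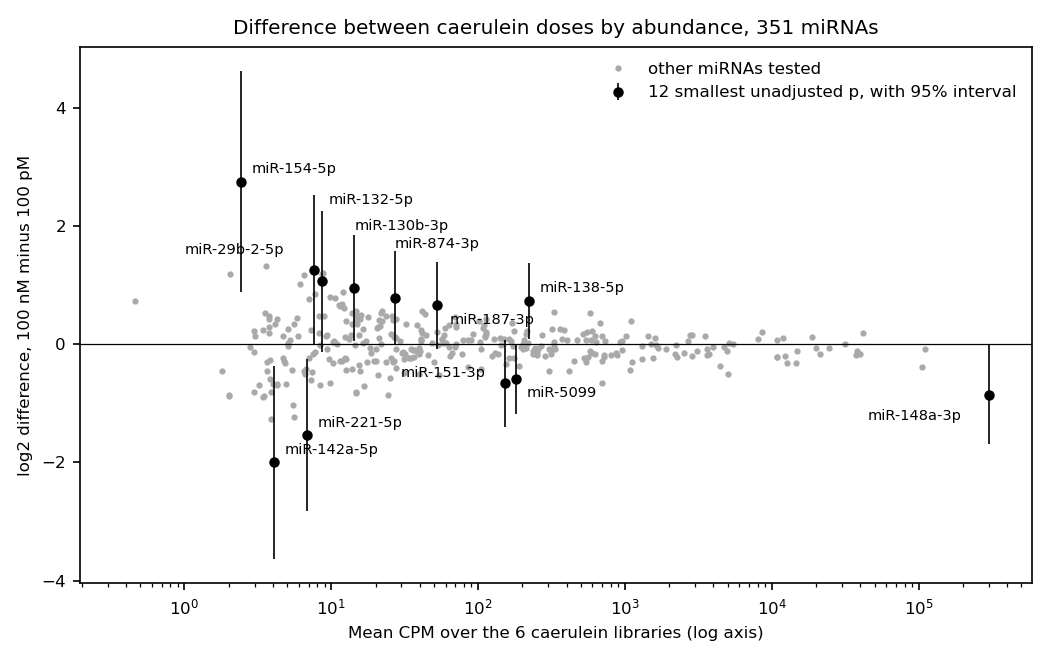
log2 difference, 100 nM minus 100 pM, of each of 351 miRNAs against its mean CPM over the 6 caerulein libraries on a log axis. Black points are the 12 miRNAs with the smallest unadjusted p with their 95% intervals; differences beyond 1 are seen only at means below 10 CPM.

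**Figure D3:**
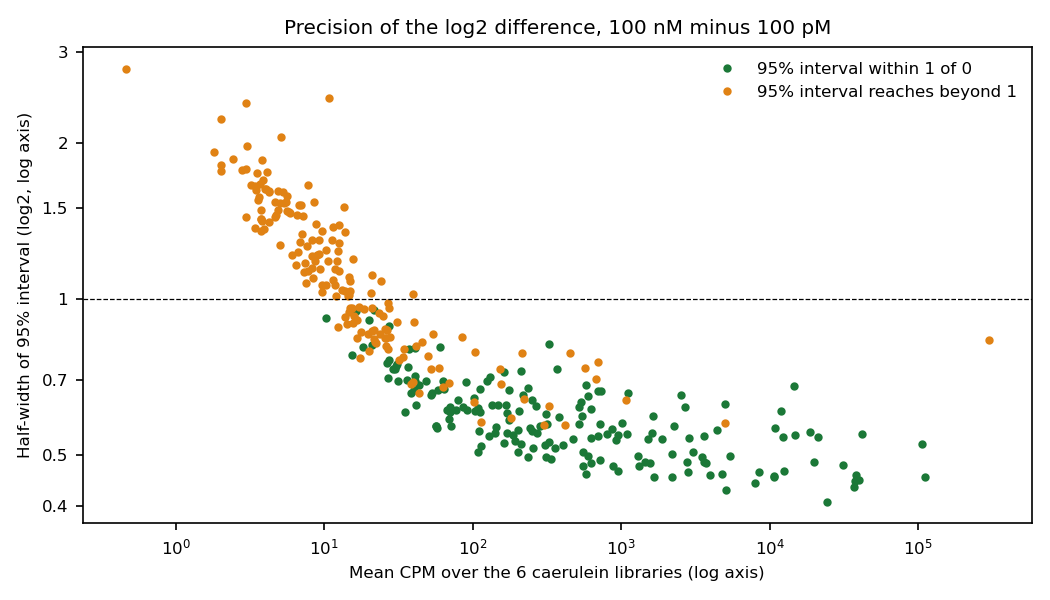
Half-width of the 95% interval of the log2 difference against mean CPM over the 6 caerulein libraries, both on log axes. Green points are the 176 miRNAs whose interval lies within 1 of 0; the median half-width is 1.48 below 10 CPM and 0.50 above 1000 CPM.

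Among the 12 miRNAs with the smallest unadjusted p, 7 were higher at 100 nM, and the most abundant of these was miR-138-5p, a miRNA best known from the nervous system. It is made from Mir138-1 (mature strand chr9:122682898-122682920) and Mir138-2 (chr8:94324312-94324334), both on the plus strand of GRCm38 and within exons of the noncoding genes Gm47135 and C78859. It was at 372, 224 and 235 CPM in replicates 1 to 3 of 100 nM, against 259, 115 and 126 CPM at 100 pM. The lowest 100 nM libraries lay below the highest 100 pM library, so the doses overlapped. At each replicate number the 100 nM library was the higher, but the labels do not pair libraries by number. edgeR put the log2 difference at 0.73 (SE 0.31, 95% interval 0.09 to 1.37, unadjusted p = 0.0269, adjusted p = 0.986). The 3 control libraries had 261, 191 and 168 CPM, between the means of the 2 doses.

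miR-130b-3p (chr16:17124071-17124092, minus strand, intron of 2610318N02Rik) was at 20.6, 15.7 and 20.3 CPM with 100 nM, against 11.5, 9.85 and 8.04 CPM with 100 pM. The doses did not overlap. The fitted log2 difference came to 0.95 (SE 0.43, interval 0.06 to 1.85, unadjusted p = 0.038, edgeR). In control libraries it was at 21.3, 13.8 and 11.9 CPM, a range that reaches into the 100 nM range and lies above all 3 of the 100 pM libraries. Its only seed mate among the tested miRNAs with a RefSeq entry was miR-130a-3p (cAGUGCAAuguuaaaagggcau). miR-130a-3p differed by 0.55 on the log2 scale (SE 0.49), at 16.8 ± 8.58 CPM and 12.5 ± 7.65 CPM (SD, n = 3 each), with overlapping doses.

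The opposite arm of the same hairpin differed in the other direction. miR-130b-5p was at 12.2, 10.5 and 14.3 CPM with 100 nM, against 18.9, 17.9 and 26.4 CPM with 100 pM, again without overlap (log2 difference -0.71, SE 0.41, unadjusted p = 0.0969, edgeR). The 3p strand was therefore the more abundant in every 100 nM library and the less abundant in every 100 pM library. On the log2 scale the 3p/5p count ratio was 0.74, 0.55 and 0.50 at 100 nM and -0.71, -0.84 and -1.65 at 100 pM. The means differed by 1.66 (exact two-sided permutation p = 0.1, the smallest that 3 against 3 allows). Control libraries had ratios of 0.75, -0.04 and -0.70, all above the highest 100 pM ratio, with the highest at the level of the 100 nM libraries. The counts behind these ratios were small: in replicate 2 of 100 nM the 3p strand had 9 counts and the 5p strand 6, and in replicate 3 of 100 pM they had 7 and 23.

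miR-154-5p had the smallest p of all and rested on few counts. Of the 6 miRNAs at an unadjusted p under 0.05, 4 passed the low-count filter in the 6 caerulein libraries alone. miR-154-5p did not. It comes from the imprinted Dlk1-Dio3 locus (chr12:109738438-109738459, plus strand, intron of Mirg), a large miRNA cluster expressed from the maternal chromosome. Its raw counts were 8, 1 and 38 at 100 nM and 2, 1 and 0 at 100 pM. These were 3.92, 1.75 and 7.16 CPM against 1.15, 0.616 and 0 CPM, but a count of 0 in replicate 3 of 100 pM allows up to 3.45 CPM (3 counts, counting error only). That limit lies above replicate 2 of 100 nM, so the apparent gap between the doses was not firm at this depth. On the log2 scale the difference was 2.75 (SE 0.91, interval 0.88 to 4.61, unadjusted p = 0.00562, edgeR). Controls had 9.21, 5.23 and 3.82 CPM, all above the 100 pM libraries. The 6 other tested strands with a RefSeq entry within 10 kb on the same strand were split. They had 3 positive and 3 negative differences and a median of 0.06.

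miR-29b-2-5p, the passenger strand of a miR-29 hairpin (chr1:195037050-195037074, plus strand, exon of A330023F24Rik), was at 12.2, 7.00 and 13.0 CPM with 100 nM and at 6.89, 4.31 and 2.30 CPM with 100 pM. The lowest 100 nM library only just cleared the highest 100 pM library. On the log2 scale the difference was 1.25 (SE 0.62, unadjusted p = 0.0541, edgeR). Its neighbours and relatives in the miR-29 family, known for repressing collagen mRNAs, all had positive differences: 5 of 5 tested members, with a median of 0.39 against -0.02 over all miRNAs. The median was 0.17 without replicate 1 of 100 nM, and 0.29 with 4 of 5 positive without replicate 3 of 100 pM. It was 0.49 without replicate 1 of 100 pM. miR-29c-3p was at 1248 ± 305 CPM with 100 nM and 955 ± 219 CPM with 100 pM (SD, n = 3 each; log2 difference 0.39, SE 0.27). miR-29b-3p differed by 0.53 with an SE of 0.36, but by 0.0044 without replicate 1 of 100 nM. miR-29a-3p, the most abundant member, differed by 0.08 with an SE of 0.21. None of the 5 members passed, and their doses overlapped in each case.

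The other leads higher at 100 nM were miR-874-3p, miR-187-3p and miR-132-5p, with log2 differences of 0.78 (SE 0.39), 0.66 (SE 0.36) and 1.06 (SE 0.58). In all 3 the doses overlapped. miR-132-5p (chr11:75173686-75173707, plus strand, intron of 1700016P03Rik) is the minor arm of a hairpin that is induced by CREB in neurons. It was at 8.33, 21.0 and 7.72 CPM with 100 nM, against 4.02, 8.62 and 2.30 CPM with 100 pM, and replicate 2 of each dose was the highest. Its abundant partner miR-132-3p was at 42.4 ± 7.86 CPM with 100 nM and 34.5 ± 6.95 CPM with 100 pM (SD, n = 3 each; log2 difference 0.32, interval -0.37 to 1.00).

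Of the 5 miRNAs lower at 100 nM among the 12, the most abundant was miR-148a-3p. Its seed family, with miR-148b-3p and miR-152-3p, includes the dominant miRNA of the acini and is known to repress the DNA methyltransferase Dnmt1. The 3 tested members have the seed CAGUGCA, and those below differ from miR-148a-3p, printed above, further along the strand.
miR-148b-3p: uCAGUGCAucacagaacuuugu
miR-152-3p: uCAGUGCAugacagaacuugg
miR-148a-3p (chr6:51269829-51269850, minus strand, outside annotated genes) was at 237704, 189608 and 212763 CPM with 100 nM, against 238120, 460283 and 457760 CPM with 100 pM. The doses did not overlap, but by a margin of 238120 to 237704 only: replicate 1 of 100 pM was like the 100 nM libraries, and replicates 2 and 3 stood apart. edgeR put the log2 difference at -0.85 (SE 0.41, interval -1.69 to -0.02, unadjusted p = 0.0457). With any 1 of the 6 libraries left out it ran from -1.12 to -0.64, and with library totals it was -0.51. Control libraries were at 157628, 157905 and 687528 CPM, a wider span than that of either dose.

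miR-148b-3p (chr15:103285185-103285206, plus strand, intron of Copz1) was at 666, 460 and 497 CPM with 100 nM, against 613, 871 and 1073 CPM with 100 pM. The order of libraries was like that of miR-148a-3p, with replicate 1 of 100 pM among the 100 nM values (log2 difference -0.65, SE 0.37). miR-152-3p (chr11:96850439-96850459, plus strand, intron of Copz2) was at 11779, 9847 and 11910 CPM with 100 nM and at 12327, 13467 and 16094 CPM with 100 pM. Here the doses did not overlap (log2 difference -0.32, SE 0.23). The 3 strands are so alike that estimated counts could in part be shared between them, which was not tested. The passenger strand miR-148a-5p was nearly level, at 1836 ± 438 CPM with 100 nM and 1935 ± 440 CPM with 100 pM (SD, n = 3 each; log2 difference -0.08, interval -0.61 to 0.46). For the miR-148a hairpin the 3p/5p count ratio averaged, in log2 units, 6.88 ± 0.417 at 100 nM and 7.60 ± 0.657 at 100 pM (SD, n = 3 each; exact two-sided permutation p = 0.2).

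miR-221-5p (chrX:19146344-19146369, minus strand, outside annotated genes) is the minor arm of a hairpin whose 3p arm represses the cell cycle inhibitor Cdkn1b. It was at 1.47, 1.75 and 5.84 CPM with 100 nM, against 12.6, 9.23 and 10.3 CPM with 100 pM, without overlap. The raw counts were 3, 1 and 31 against 22, 15 and 9, and control libraries had 11.1, 3.37 and 14.3 CPM. The fitted log2 difference came to -1.54 (SE 0.63, interval -2.83 to -0.26, unadjusted p = 0.0208, edgeR). miR-222-3p, from the neighbouring hairpin, was at 34.8, 24.5 and 37.5 CPM with 100 nM and at 53.4, 40.6 and 47.1 CPM with 100 pM, also without overlap (log2 difference -0.50, SE 0.34). The main strand miR-221-3p was nearly level, at 154 ± 40.6 CPM and 143 ± 58.1 CPM (SD, n = 3 each; log2 difference 0.09, SE 0.30). For the miR-221 hairpin the 3p/5p count ratio averaged, in log2 units, 5.65 ± 1.31 at 100 nM and 3.62 ± 0.369 at 100 pM without overlap (SD, n = 3 each; exact two-sided permutation p = 0.1). Ratios were computed for 6 hairpins, 5 of them chosen for their p-values, and no ratio passed after Benjamini-Hochberg adjustment over these 6 (lowest adjusted exact p = 0.3). Over all hairpins, the 2 arms had differences of the same sign in 46 of the 89 pairs in which both were tested.

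miR-142a-5p (chr11:87756867-87756887, plus strand, intron of Mir142hg) is made in blood cells and marks leukocytes. It was at 0, 3.50 and 2.07 CPM with 100 nM, against 5.74, 8.62 and 4.60 CPM with 100 pM. The doses did not overlap; the 0 counts in replicate 1 of 100 nM allow up to 1.47 CPM. The raw counts were 0, 2 and 11 against 10, 14 and 4, and edgeR put the log2 difference at -2.002 (SE 0.79, interval -3.64 to -0.37, unadjusted p = 0.0183). Controls had 2.42, 4.86 and 7.65 CPM. Like miR-154-5p, miR-142a-5p did not pass the low-count filter in the 6 caerulein libraries alone.

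miR-5099 and miR-151-3p were the other leads lower at 100 nM. miR-5099 was at 109, 140.0 and 182.1 CPM with 100 nM and at 144, 230 and 277 CPM with 100 pM (log2 difference -0.58, SE 0.29). miR-151-3p was at 88.2, 87.5 and 173 CPM with 100 nM and at 95.3, 212 and 256 CPM with 100 pM (log2 difference -0.66, SE 0.36). In both, replicate 3 was the highest and replicate 1 of 100 pM fell among the 100 nM values, so the doses overlapped. The other arm, miR-151-5p, differed by 0.07 with an SE of 0.31.

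**Figure D4:**
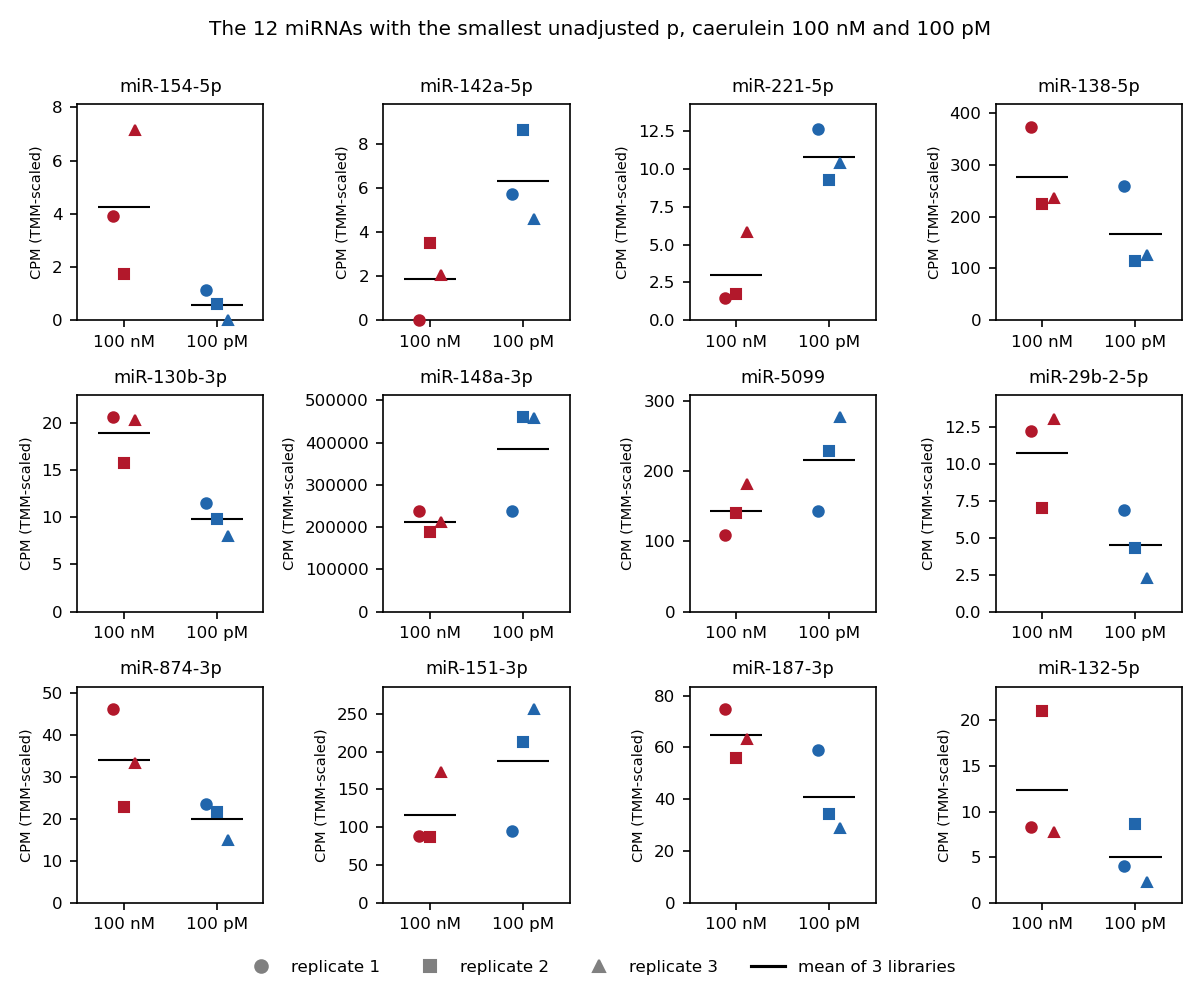
TMM-scaled CPM in each caerulein library of the 12 miRNAs with the smallest unadjusted p, with 100 nM in red and 100 pM in blue, replicates as symbols and the mean of 3 libraries as a bar. In the panels of miR-148a-3p, miR-5099 and miR-151-3p replicate 1 of 100 pM sits at the level of the 100 nM libraries.

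For several other miRNAs the libraries of the 2 doses did not overlap although the difference was small. miR-145a-5p, a mesenchymal miRNA, was at 402, 390 and 380.5 CPM with 100 nM against 316, 348 and 318 CPM with 100 pM (log2 difference 0.26, SE 0.25). The mesenchymal list as a whole had 4 of 10 positive members. Its more abundant members miR-143-3p and miR-199a-3p differed by -0.22 (SE 0.27) and -0.17 (SE 0.23), with overlapping doses. miR-425-5p was at 121 ± 8.32 CPM and 97.2 ± 4.63 CPM (SD, n = 3 each; log2 difference 0.33, SE 0.25), miR-324-3p differed by 0.48 (SE 0.40), miR-381-3p by 0.32 (SE 0.33) and miR-16-1-3p by 0.14 (SE 0.27). On the lower side, miR-203-3p, an epithelial miRNA, was at 675 ± 49.4 CPM and 768 ± 35.3 CPM (SD, n = 3 each; log2 difference -0.19, SE 0.24). The sign turned with library totals, to 0.12. miR-26a-2-3p differed by -0.35 (SE 0.47). Their SEs borrow the spread of all libraries and miRNAs, and none of these had an unadjusted p under 0.05 in edgeR. Doses without overlap were found for 5.7% of all miRNAs tested, as given above.

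The labelled tissue was checked against its own miRNAs. The acinar list, the arms of miR-148a, miR-216a, miR-216b and miR-217, held 34.3%, 33.7% and 36.02% of counts at 100 nM and 33.6%, 49.3% and 48.4% at 100 pM. The means differed by -9.11 percentage points (exact two-sided permutation p = 0.4; the smallest possible is 0.1), and by -2.07 with miR-148a-3p taken out of list and total. Of its 8 tested members 6 had negative differences with a median of -0.15, against 6 of 8 positive with library totals and 5 of 8 positive without replicate 2 of 100 pM. miR-217-5p was at 91415 ± 21327 CPM and 120163 ± 40117 CPM (SD, n = 3 each; log2 difference -0.39, SE 0.26). Its difference was -0.65 without replicate 1 of 100 pM and -0.083 without replicate 2 of 100 pM. miR-216a-5p was at 11037 ± 1307 CPM and 10489 ± 1768 CPM (0.07, SE 0.22). Only miR-148a-3p, 1 of 8, had an unadjusted p under 0.05, against 1.71% of all miRNAs. The islet list, which includes miR-375-3p, held 12.6% to 13.5% of counts at 100 nM and 9.51% to 12.8% at 100 pM.

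For other abundant miRNAs the intervals were narrow. miR-375-3p, which restrains insulin secretion in islets, was at 104935, 103345 and 114887 CPM with 100 nM and at 111864, 123034 and 106196 CPM with 100 pM. The fitted log2 difference came to -0.08, with an interval from -0.53 to 0.38, and it turned to 0.23 with library totals. miR-200a-3p, of the epithelial miR-200 family, differed by 0.19 with an interval from -0.36 to 0.74, and let-7f-5p by -0.17 with an interval from -0.62 to 0.28. The 5 narrowest intervals belonged to miR-27b-3p, let-7b-5p, miR-30a-5p, miR-29a-3p and let-7i-5p. For miR-27b-3p, at 23982 ± 1397 CPM with 100 nM and 25084 ± 2292 CPM with 100 pM (SD, n = 3 each), the interval ran from -0.47 to 0.34. For let-7b-5p it ran from -0.42 to 0.44, for miR-30a-5p from -0.62 to 0.25, and for let-7i-5p from -0.56 to 0.33.

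The 3p arm of miR-21, which the submitters' title singles out, was measured at both doses. miR-21a-3p (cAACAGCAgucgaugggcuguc) was at 2.94, 12.2 and 25.6 CPM with 100 nM, against 5.16, 12.3 and 10.3 CPM with 100 pM. The 100 nM libraries held both the lowest and the highest value, and the doses overlapped. Raw counts of miR-21a-3p were 6, 7 and 136 at 100 nM and 9, 20 and 9 at 100 pM. Control libraries had 1.45, 2.62 and 5.26 CPM of it. edgeR put the log2 difference at 0.64 (SE 0.67), and at -0.53 without replicate 3 of 100 nM. The guide strand miR-21a-5p (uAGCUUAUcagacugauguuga) was at 15556, 18854 and 25388 CPM with 100 nM and at 17516, 20860 and 28632 CPM with 100 pM (log2 difference -0.16, interval -0.71 to 0.38). In log2 units the 3p/5p count ratio differed by 0.34 between the doses (exact two-sided permutation p = 0.7).

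None of the 19 lists of miRNAs had a called member, and none of their medians left the range from -0.50 to 0.39, beside -0.02 over all miRNAs. Medians furthest above 0 were those of the miR-29 family (0.39), the calcium and CREB induced list (0.37, 3 of 4 positive), the p53 and stress list (0.36, 5 of 7 positive) and the erythrocyte list (0.22, 4 of 4 positive). The p53 and stress median was 0.13 without replicate 1 of 100 nM and 0.20 without replicate 3 of 100 pM. It was 0.51 without replicate 3 of 100 nM. In that list, miR-34a-5p, a p53 target, was at 759 ± 267 CPM and 590 ± 228 CPM (SD, n = 3 each; log2 difference 0.36, SE 0.34). The negative members, miR-192-5p and miR-194-5p, differed by -0.29 (SE 0.26) and -0.20 (SE 0.28). miR-451a, the main red cell miRNA, differed by 0.34 with an SE of 0.30. In TMM-scaled CPM the doses overlapped for all 4 members of the erythrocyte list, and only 2 of 4 were positive without replicate 1 of 100 pM (median 0.08). The erythrocyte median was 0.40 without replicate 3 of 100 pM. The calcium and CREB list, of interest since caerulein acts through cytosolic calcium, had a median of -0.06 without replicate 3 of 100 nM and 0.13 without replicate 1 of 100 pM. Its median was 0.70, with 4 of 4 positive, without replicate 1 of 100 nM.

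Medians furthest below 0 were those of the cluster of miR-221 and miR-222 (-0.50, 2 of 3 negative), the endothelial list (-0.48, 2 of 2 negative) and the leukocyte list (-0.45, 3 of 4 negative). miR-126a-3p, the defining endothelial miRNA, was at 3486, 3121 and 5790 CPM with 100 nM, against 4455, 5161 and 8091 CPM with 100 pM. Its log2 difference was -0.51 with an interval from -1.09 to 0.06, and that of miR-126a-5p, the other arm, was -0.45 with an interval from -1.02 to 0.12. Control libraries held 6060, 6492 and 7783 CPM of miR-126a-3p. With library totals the endothelial and leukocyte medians were -0.16 and -0.15. Single libraries also moved them: the endothelial median was -0.74 without replicate 3 of 100 nM and -0.17 without replicate 3 of 100 pM. The leukocyte median was -1.06 without replicate 3 of 100 nM and -0.13 without replicate 1 of 100 nM, and 0.012 over the 2 members with a mean of at least 10 CPM. For miR-126a-3p the difference was -0.81 without replicate 3 of 100 nM and -0.22 without replicate 3 of 100 pM. The leukocyte list summed to 0.00599% to 0.0106% of counts at 100 nM and 0.00634% to 0.00769% at 100 pM, and the endothelial list to 0.363% to 0.652% and 0.425% to 0.696%. The part of such cells in the differences was not tested.

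The medians of the remaining lists lay between -0.25 and 0.15 with all 6 libraries. The let-7 family stood at 0.00 (5 of 9 positive), the miR-106b-25 cluster at -0.02 (2 of 5 positive), the inflammation list at -0.05 (3 of 6 positive), the Dlk1-Dio3 locus at 0.09 (14 of 25 positive), and the miR-17-92 cluster at 0.15 (6 of 7 positive). Leaving out replicate 3 of 100 nM gave -0.36 for the inflammation list and -0.23 for the Dlk1-Dio3 locus. The inflammation median was 0.27 without replicate 1 of 100 nM, and the Dlk1-Dio3 median 0.21 without replicate 2 of 100 pM. The miR-17-92 median ran from 0.037 without replicate 1 of 100 nM to 0.39 without replicate 1 of 100 pM. In the inflammation list, miR-146a-5p was at 998 ± 156 CPM and 1224 ± 444 CPM (SD, n = 3 each; log2 difference -0.30, SE 0.32). The miR-200 family (-0.15, 2 of 9 positive), islet list (-0.15, 1 of 8), mesenchymal list (-0.16, 4 of 10) and miR-30 family (-0.18, 2 of 11) had mostly negative members, but with library totals they had 7 of 9, 6 of 8, 9 of 10 and 9 of 11 positive members. The cluster of miR-183, miR-96 and miR-182 stood at -0.19 (1 of 3 positive, 2 of 3 with library totals). Liver and muscle miRNAs, of tissues not sampled, had a median of -0.25 with 0 of 4 positive (2 of 4 with library totals), and held 0.00355% to 0.00466% of counts at 100 nM and 0.00283% to 0.00534% at 100 pM.

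**Figure D5:**
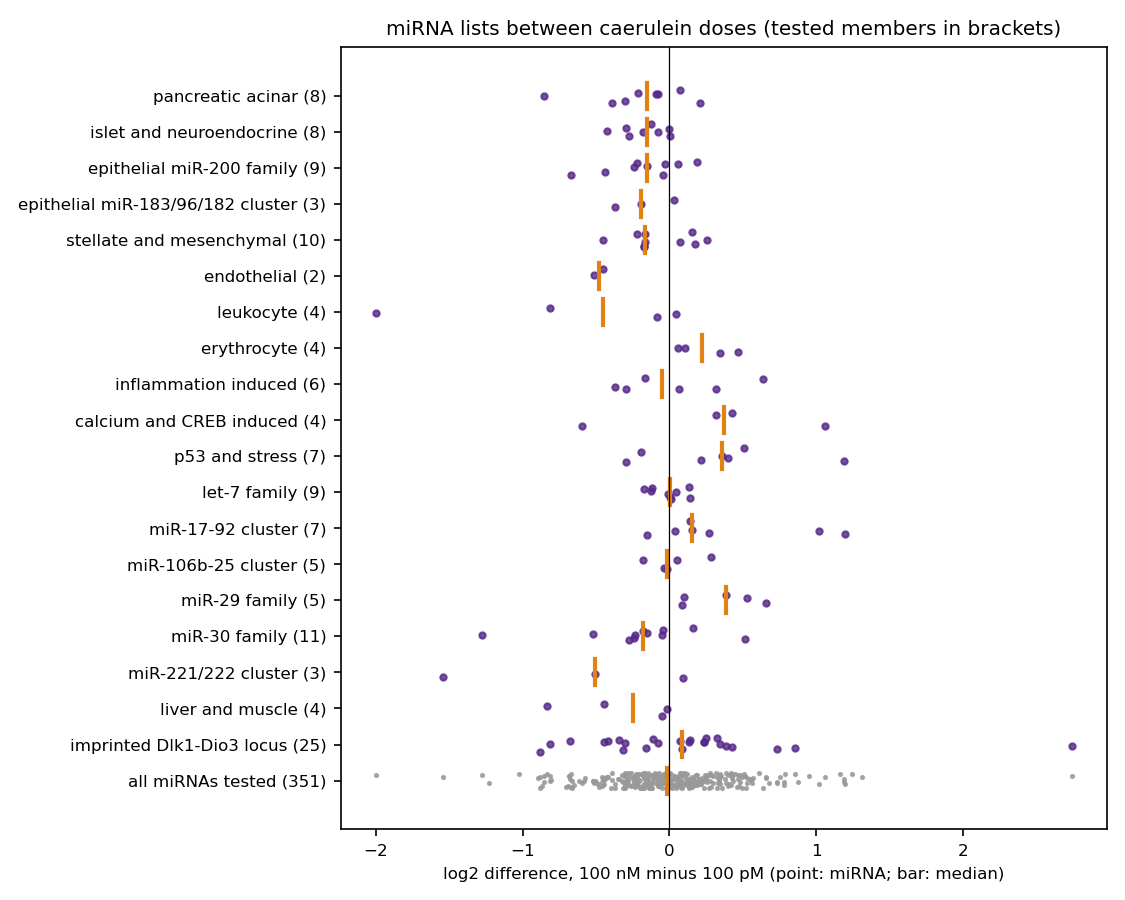
log2 difference, 100 nM minus 100 pM, of every tested member of the 19 miRNA lists and of all 351 miRNAs, with the median of each as a bar and the number of tested members in brackets. List medians lie between -0.50 and 0.39, and the points far from 0 are single scarce miRNAs such as miR-154-5p and miR-142a-5p.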

How the data were processed

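Small RNA of mouse pancreatic acini was sequenced on an Illumina instrument, per the labels' protocols. The submitters' processing notes list cutadapt, Bowtie, GRCm38 and mm10, with no versions. No counting tool was named in the sources used here. The authors deposited estimated counts (expected counts) per mature miRNA, whole numbers within 0.5 of the summed estimated counts per precursor, and RPM per precursor. Of the precursor values above 0, 74.0% were whole within 1e-06.

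The contrast, 100 nM minus 100 pM, was tested with edgeR 4.0.16 (R 4.3.3) in a single fit to all 15 libraries with 1 mean for each of the 5 treatment groups. The quasi-likelihood F test was used. Scaling by TMM and removal of low counts by filterByExpr (at least 10 in enough libraries and 15 in total) used all 15 libraries. This kept 351 of 1915 miRNAs, which held at least 99.97% of the counts of each caerulein library, and left 10 residual degrees of freedom. edgeR shares the spread across miRNAs, and its tests and the intervals used a total of 25.2 degrees of freedom. Adjustment was by Benjamini-Hochberg over all 351, with a threshold of 0.05. SEs were derived from the F statistic. CPM are TMM-scaled. Distances used log2 CPM with a prior count of 2. Arm ratios added 0.5 to each count. No 2 replicates of a dose were alike enough to be a repeat deposit (chi-square over degrees of freedom between 54.9 and 400.1). The model was tested on simulated counts. Limits given for a count of 0 (3 counts) cover counting error only.

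The text names the 12 smallest unadjusted p-values, up to 6 of the largest differences in each direction among miRNAs whose doses did not overlap at a mean of at least 10 CPM, the 5 most abundant and 5 most precisely measured miRNAs, both arms of miR-21a, other arms, and abundant list members; miR-148b-3p and miR-130a-3p were added as seed mates. Members and lists were chosen with earlier results of these data known. Alternatives used DESeq2 1.42.0, limma 3.58.1 on the deposited RPM, other scalings and filters, a replicate block and leaving out libraries. Sequences are from RefSeq (GRCm38.p6; 312 of 351 tested miRNAs matched) and gene context from GENCODE M21. Tests of single values used scipy 1.17.1 (Python 3.11.15), and figures matplotlib 3.10.9.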

Additional observations from a re-analysis of the deposited data

How the results depend on the processing

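The count of 0 called miRNAs held in 18 of 19 alternatives. The exception was the fit of the 6 caerulein libraries alone with the replicate number as a block, which called 1, miR-138-5p (log2 difference 0.82, adjusted p = 0.0413, edgeR; over its 19 alternatives the difference ran from 0.52 to 1.20). The block in the model of all 15 libraries called 0, with 13 at an unadjusted p under 0.05, and no paired result was taken as the main one. The deviations of libraries with the same number, 1 to 3, correlated across miRNAs at 0.33, 0.055 and 0.39. Libraries of unlike number correlated at -0.40 to 0.063, so numbers 1 and 3 stood above all of these and number 2 did not. The labels state no pairing, and whether the numbers mark shared preparations was not tested. Unadjusted p-values under 0.05 numbered 3 at a mean of at least 10 CPM, 15 with library totals, 16 and 11 with limma at pseudocounts of 1 and 10, 24 of 867 without the filter and 32 of 307 in the blocked fit of 6 libraries. Leaving out single libraries gave 4 to 28.

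Of 880 alternative values of 47 named miRNAs, 835 kept their sign and their side of the threshold, and 44 turned sign. With library totals, limma at a pseudocount of 1 and limma at 10, the differences were 0.23, 0.23 and 0.23 for miR-148a-5p, 0.12, 0.12 and 0.12 for miR-203-3p, and 0.23, 0.23 and 0.23 for miR-375-3p. They were 0.14, 0.12 and 0.12 for let-7f-5p, 0.13, 0.14 and 0.14 for miR-30a-5p, 0.19, 0.20 and 0.20 for let-7i-5p, and 0.23, 0.25 and 0.25 for miR-27b-3p. They were 0.16, 0.15 and 0.15 for miR-21a-5p and 0.040, 0.062 and 0.061 for miR-146a-5p. These settings do not correct for the dominant miR-148a-3p, and each moved the median over all miRNAs upward; limma at a pseudocount of 10 also drew scarce miRNAs toward 0, with miR-154-5p at 0.44.

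Leaving out 1 library at a time moved the difference from -0.093 to 0.45 for miR-221-3p, -0.062 to 0.51 for miR-200a-3p, -0.086 to 0.012 for miR-27b-3p, -0.35 to 0.057 for miR-21a-5p, -0.22 to 0.16 for miR-148a-5p and -0.53 to 1.18 for miR-21a-3p. It ran from -0.0019 to 0.23 for miR-216a-5p, -0.18 to 0.33 for miR-151-5p, -0.12 to 0.049 for miR-375-3p, -0.27 to 0.046 for miR-30a-5p, -0.20 to 0.078 for let-7i-5p, -0.48 to 0.11 for miR-146a-5p and -0.019 to 0.10 for let-7b-5p. The miR-21a arm ratio ran from -0.14, without replicate 3 of 100 nM, to 1.01. The cause was not tested.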

Other observations

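Of 1915 mature miRNAs in the deposited table, 699 had a count in at least 1 of the 6 caerulein libraries and 348 in all 6. Only 3 were seen in all 3 libraries of 100 nM and in none of 100 pM, and 0 showed the converse. These were miR-3057-5p with 2, 2 and 7 counts, miR-384-5p with 2, 2 and 5 counts, and miR-877-5p with 2, 2 and 3 counts, each against 0, 0 and 0 counts at 100 pM. All 3 were too scarce for the test, and a count of 0 allows up to 1.72, 1.85 and 3.45 CPM in replicates 1 to 3 of 100 pM. The 100 nM group holds both the deepest library, with 582 miRNAs detected, and the shallowest, replicate 2, with 415, against 478 to 494 in the libraries of 100 pM. Each of the 3 miRNAs had 2 counts in that shallowest library.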
